A study of Homo sapiens with 18 samples.

Results

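The genes described here build, load and regulate the major histocompatibility complex (MHC) class I molecule. They are the heavy chain genes HLA-B, HLA-C, HLA-E, HLA-F and HLA-G, the light chain gene B2M, the peptide transporter genes TAP1 and TAP2, and NLRC5, which encodes a transactivator of class I genes. These 9 genes were taken by symbol from the 28395 genes of the RNA-seq tables. Open chromatin was read from the 19 regions that lay within 5 kb of one of them, of 85549 regions in which ATAC-seq peaks were called in any library. RNA-seq and ATAC-seq libraries came from derivatives of K562, an erythroleukemia line established from chronic myelogenous leukemia. V-K562 cells carried an empty vector, B-K562 cells expressed wild-type BASP1, a transcriptional corepressor that becomes myristoylated at its N-terminus, and G-K562 cells expressed BASP1-G2A, a mutant that cannot be myristoylated. Each line was a stably transfected pool kept in G-418, with BASP1 detected by the authors in most cells of the BASP1 lines, and each was represented by 3 separate cultures per assay. All comparisons with V-K562 cells use the same V-K562 libraries.

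MHC class I molecules display peptides of the cell's own proteins at the surface, where CD8+ T cells read them and where natural killer (NK) cells test for their presence. A heavy chain folds with beta-2-microglobulin, the product of B2M, and takes up a peptide that the TAP1 and TAP2 heterodimer has pumped from the cytosol into the endoplasmic reticulum. The classical class I promoters carry an element bound by interferon regulatory factors, an NF-kB element, and a conserved module with an X2 box and a CCAAT-type Y box, through which NLRC5 acts together with RFX, CREB or ATF and NF-Y proteins. K562 cells are a standard NK cell target that is known for displaying little class I.

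The promoter sequences are shown because most of the members moved together between the lines and because most start sites lay in regions scored by ATAC-seq. HLA-F is an exception on both counts, with its region far inside the gene and RNA too low to be tested. The RefSeq promoter table (GRCh38.p14) gave a window of 250 bases before to 50 bases after the start for 7 of the 9 members. The 6 windows below belong to the members with a called region at or within the gene. Lower case is the 5′ to 3′ strand of the gene, and capitals mark matches to TTTCNNTTC (the core of an interferon response element), to the CCAAT box, to TGACG (the core of the X2 box) and to GGGNNTTCC (an NF-kB core), each searched on both strands.
HLA-B: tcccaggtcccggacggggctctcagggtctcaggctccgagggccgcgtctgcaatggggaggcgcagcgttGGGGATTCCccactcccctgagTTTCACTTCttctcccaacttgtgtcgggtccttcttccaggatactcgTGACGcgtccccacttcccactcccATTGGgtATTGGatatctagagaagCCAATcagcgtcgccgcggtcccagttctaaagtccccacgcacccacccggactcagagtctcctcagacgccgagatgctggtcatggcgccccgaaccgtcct
HLA-C: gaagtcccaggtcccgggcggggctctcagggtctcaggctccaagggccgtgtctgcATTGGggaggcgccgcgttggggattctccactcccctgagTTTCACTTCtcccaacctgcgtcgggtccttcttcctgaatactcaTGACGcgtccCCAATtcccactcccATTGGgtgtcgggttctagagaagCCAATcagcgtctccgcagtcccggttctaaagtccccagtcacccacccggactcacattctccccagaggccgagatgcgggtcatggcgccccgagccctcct
HLA-F: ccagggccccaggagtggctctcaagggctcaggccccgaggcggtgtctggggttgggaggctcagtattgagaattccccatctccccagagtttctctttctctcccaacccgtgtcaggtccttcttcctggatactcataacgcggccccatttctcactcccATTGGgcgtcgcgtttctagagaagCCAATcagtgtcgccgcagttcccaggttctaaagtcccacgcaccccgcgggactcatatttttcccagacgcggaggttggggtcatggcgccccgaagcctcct
B2M: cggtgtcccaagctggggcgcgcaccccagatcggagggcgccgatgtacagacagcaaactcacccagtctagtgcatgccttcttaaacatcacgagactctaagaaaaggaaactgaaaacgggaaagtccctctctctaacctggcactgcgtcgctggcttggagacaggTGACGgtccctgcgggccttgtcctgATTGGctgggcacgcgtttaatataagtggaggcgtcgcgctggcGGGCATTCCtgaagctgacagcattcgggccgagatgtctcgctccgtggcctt
TAP1: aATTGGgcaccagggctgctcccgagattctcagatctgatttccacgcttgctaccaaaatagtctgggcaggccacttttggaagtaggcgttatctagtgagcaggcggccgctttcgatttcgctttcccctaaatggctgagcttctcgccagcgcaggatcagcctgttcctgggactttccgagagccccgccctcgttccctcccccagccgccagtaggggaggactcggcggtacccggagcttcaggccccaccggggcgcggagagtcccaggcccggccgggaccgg
TAP2: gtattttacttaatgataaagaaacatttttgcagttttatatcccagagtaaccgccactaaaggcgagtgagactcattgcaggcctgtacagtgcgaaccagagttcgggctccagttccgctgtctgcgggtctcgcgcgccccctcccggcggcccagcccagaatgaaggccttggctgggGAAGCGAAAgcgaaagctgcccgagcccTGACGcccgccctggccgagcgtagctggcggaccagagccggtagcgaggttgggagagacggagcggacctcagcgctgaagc

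These windows lie at chr6:31357130-31357429 for HLA-B, chr6:31272043-31272342 for HLA-C, chr6:29723184-29723483 for HLA-F, chr15:44711267-44711566 for B2M, chr6:32853655-32853954 for TAP1 and chr6:32838690-32838989 for TAP2. HLA-F, B2M and HLA-G are on the plus strand and the other windows on the minus strand. HLA-B and HLA-C had the same arrangement, an interferon element core TTTCACTTC at -155 and -151, TGACG at -106 and -105, and a CCAAT box at -56 in both. HLA-B also held the NF-kB core GGGGATTCC at -177. The HLA-F window held CCAAT boxes at -82 and -57 and no match to the other letters searched. In B2M the X2 core lay at -75, a CCAAT box at -49 and an NF-kB core at -4. TAP2 had an interferon element core at -63 and TGACG at -35, and TAP1, for which 1 of 2 windows is shown, had a CCAAT box at -249. The window nearest to HLA-G, 1 of 3, held no match. Among 35116 promoter windows of this length, 7.66% held the interferon element core, 34.6% a CCAAT box, 24.6% TGACG and 6.58% the NF-kB core. The letters GCGNGGGCG, shared by WT1 and EGR proteins, were in 9.43% of all windows and in none of the 7. A match of letters describes the sequence and does not show that a protein binds there. Only these letters at this spacing were searched. Longer stretches, such as tttctctttc in HLA-F, gaaactgaaa in B2M, and tttcgatttc and gggactttcc in TAP1, could not match. A window without a match may therefore still hold such an element.

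RNA-seq values are read counts divided by a size factor and rounded, called normalized counts here, and are given as deposited. Their totals ran from 32074895 to 33229588 per library. Values of the V-K562 libraries differ slightly between the tables because each table was scaled on its own. Counting error alone is large for genes at 10 or below. BASP1 itself checked the labels, with a range of 5 to 7 over the V-K562, 6189 to 6849 over the B-K562 and 8124 to 12538 over the G-K562 libraries. All 6 erythroid markers of K562 cells that were read (GATA1, TAL1, HBG1, HBG2, TFRC and LMO2) were present in every library, but not at the same level. Their summed value ran from 81334 to 90588 over the V-K562 libraries, from 134328 to 136741 over those of B-K562 and from 46194 to 52418 over those of G-K562. Against V-K562 cells all 6 rose in the B-K562 line, and 5 fell and 1 rose in the G-K562 line. The 11 markers of other cell types summed to 3023 to 3263, 2170 to 2323 and 4982 to 5427 in the same order, mostly from LYZ and COL1A1. Of the 7 of these tested, 4 fell and 1 rose in the B-K562 line, and 3 fell (CD3D, COL1A1 and PDGFRB) and 2 rose in the G-K562 line, where LYZ went from a mean of 1348 to 3965. MS4A1 was at 0 in every library, CD1C and CLEC9A were at 0 in all B-K562 libraries and CD1C at 0 in all G-K562 libraries. Over all genes tested, 37.2% fell and 38.6% rose in B-K562 cells, and 33.3% fell and 33.5% rose in G-K562 cells. The part of these marker differences in the class I results was not tested. In bulk RNA, fewer cells that transcribe a gene and less RNA per cell cannot be told apart.

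The class I genes went down in B-K562 cells and up in G-K562 cells. The 3 expressed heavy chain genes, B2M and TAP1 were below V-K562 in every B-K562 library and above it in every G-K562 library. TAP2 and NLRC5 did not follow them. TAP2 was higher than V-K562 in both BASP1 lines, and NLRC5 was lower in both. Differences were tested with limma-trend on log2(normalized count + 1), with Benjamini-Hochberg adjustment over all genes tested, and rises and falls are changes with an adjusted p of at most 0.05. Fold changes on this scale understate the change of low genes. The plot of member values by library shows these patterns.

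**Figure D1:**
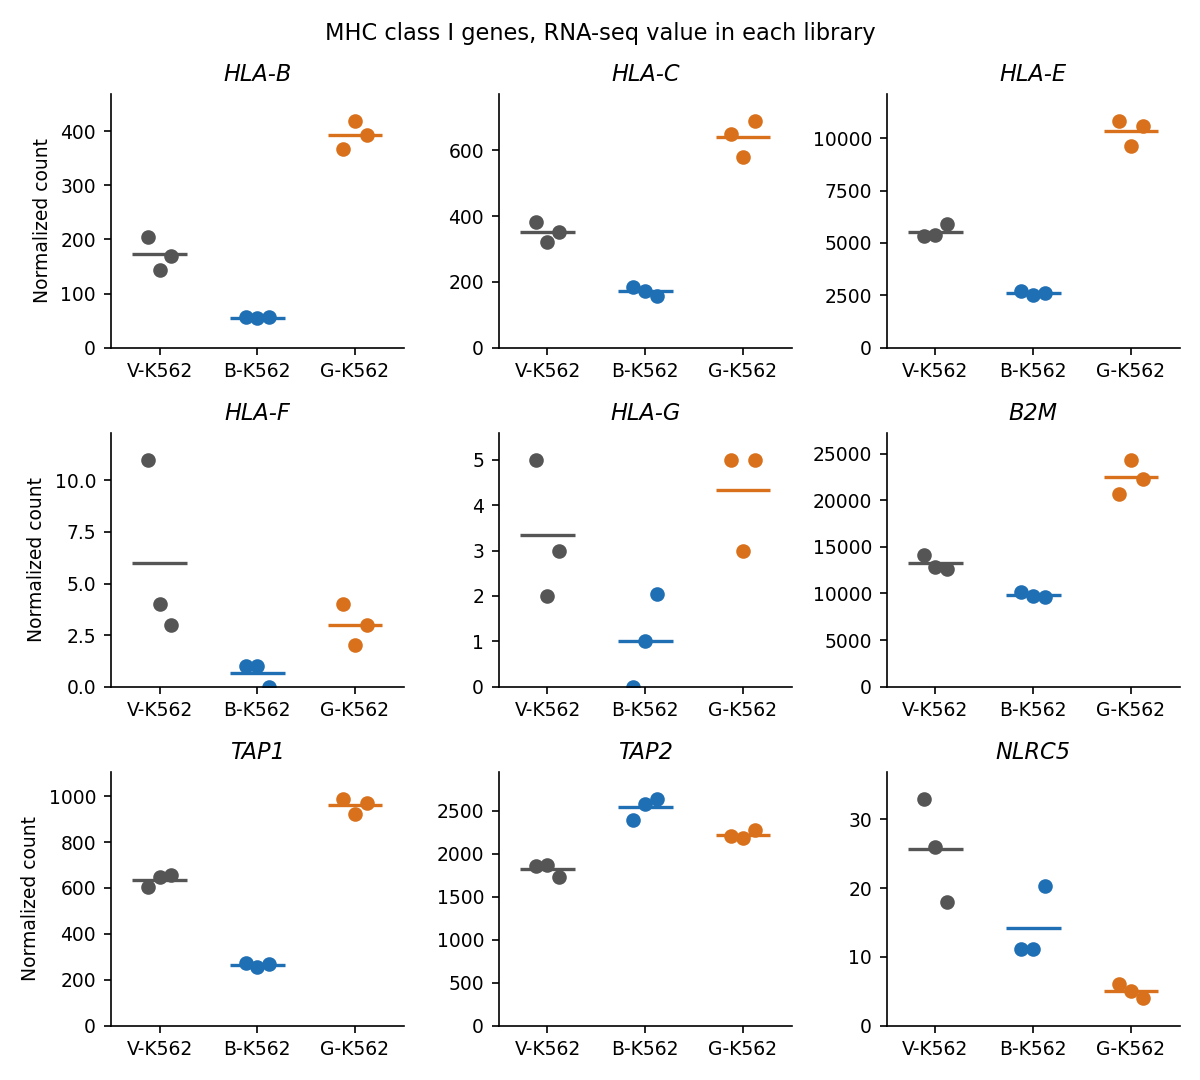
Normalized count of each of the 9 genes (y axis, linear, from 0) in the 3 libraries of each line (points), with the line's mean as a bar and B-K562 values put on the scale of the V-K562 and G-K562 table. HLA-B, HLA-C, HLA-E, B2M and TAP1 are lowest in B-K562 and highest in G-K562 cells, TAP2 is highest in B-K562 cells, and NLRC5 is lowest in G-K562 cells, at 4 to 6.

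HLA-B (Entrez 3106, chromosome 6, 31353868 to 31357212, minus strand, GRCh38) encodes a classical heavy chain that presents peptides to CD8+ T cells. It was at 202, 141 and 165 in V-K562 and at 55, 54 and 55 in B-K562 libraries. In the other table V-K562 libraries were at 205, 144 and 169 and G-K562 libraries at 367, 419 and 392. The lines did not overlap, and V-K562 replicate 1 was the highest of its line. In B-K562 cells its log2 fold change was -1.60 (standard error 0.14, adjusted p = 2.6e-07) and in G-K562 cells 1.19 (standard error 0.13, adjusted p = 7.8e-06, limma-trend with Benjamini-Hochberg adjustment). Mean values were 3.10-fold lower and 2.27-fold higher than in V-K562 cells, the widest span among the expressed heavy chains.

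HLA-C (Entrez 3107, chromosome 6, 31268749 to 31272136, minus strand), the other classical heavy chain of the set and a ligand of NK cell receptors, had values of 376, 315 and 345 in V-K562 and of 182, 169 and 155 in B-K562 libraries. Beside G-K562 libraries at 650, 579 and 690, the V-K562 libraries stood at 382, 320 and 352. Again no library of a line reached into the range of another. HLA-C fell by 1.03 log2 units in B-K562 cells (standard error 0.10, adjusted p = 4.8e-07) and rose by 0.86 in G-K562 cells (standard error 0.10, adjusted p = 1.0e-05, limma-trend with Benjamini-Hochberg adjustment).

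HLA-E (Entrez 3133, chromosome 6, 30489406 to 30494205, plus strand) encodes a heavy chain that presents leader peptides of other class I chains to the NKG2A receptor of NK cells. Its values were 5235, 5288 and 5799 in V-K562 libraries against 2671, 2470 and 2573 in B-K562 libraries. In the G-K562 table they were 5315, 5369 and 5917 for V-K562 and 10830, 9614 and 10575 for G-K562. The 3 lines were separate, with the spread within a line small beside the gaps. The log2 fold changes were -1.08 (standard error 0.05, adjusted p = 6.5e-10) in B-K562 and 0.90 (standard error 0.07, adjusted p = 3.1e-07) in G-K562 cells (limma-trend, Benjamini-Hochberg). Between 84.5% and 88.0% of the summed per-kilobase value of the 5 heavy chains came from HLA-E in each of the 9 libraries.

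HLA-F (Entrez 3134, chromosome 6, 29723340 to 29740355, plus strand) and HLA-G (Entrez 3135, chromosome 6, 29826979 to 29831122, plus strand), the other nonclassical heavy chains, stayed at 11 or below in every library. HLA-F was at 11, 4 and 3 in V-K562, at 1, 1 and 0 in B-K562 and at 4, 2 and 3 in G-K562 libraries. HLA-G was at 5, 2 and 3 in V-K562, at 0, 1 and 2 in B-K562 and at 5, 3 and 5 in G-K562 libraries. Neither gene had a value of at least 10 in 3 libraries, so neither entered the test. With no filter on low values, HLA-F passed in B-K562 cells (adjusted p = 0.010), but HLA-G did not (adjusted p = 0.072), and neither passed in G-K562 cells (adjusted p = 0.29 and 0.51). Between the BASP1 lines both were then higher in G-K562 libraries (adjusted p = 0.035 and 0.013, limma-trend with Benjamini-Hochberg adjustment). With values of 0 to 11, counting error is large and the fitted sizes depend on the added 1, so no fold change is given. HLA-F shares its 3′ part with the antisense gene HLA-F-AS1. The heavy chain genes are near-identical paralogs that vary between people, and since the authors kept only uniquely mapped reads with at most 2 mismatches to the reference genome, levels compared between them are uncertain.

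B2M (Entrez 567, chromosome 15, 44711487 to 44718159, plus strand) was the most abundant member. Its values were 13934, 12678 and 12376 in V-K562 and 9937, 9544 and 9455 in B-K562 libraries. Against V-K562 at 14147, 12873 and 12628, the G-K562 libraries were at 20706, 24333 and 22298. B2M moved in the same directions as the heavy chains, without overlap of the lines. Its fall in B-K562 cells was the smallest among the genes that fell, -0.43 log2 units (standard error 0.05, adjusted p = 4.7e-06), and its rise in G-K562 cells was 0.76 (standard error 0.07, adjusted p = 2.4e-06, limma-trend with Benjamini-Hochberg adjustment). Per kilobase of exon, B2M exceeded the sum of the heavy chains 3.12 to 3.77 times over the V-K562 libraries, 5.42 to 5.63 times over those of B-K562 and 2.78 to 3.63 times over those of G-K562. The ratio was higher in all B-K562 libraries than in any other, and V-K562 and G-K562 libraries overlapped.

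TAP1 (Entrez 6890, chromosome 6, 32845209 to 32853971, minus strand) encodes a subunit of the peptide transporter. It was at 594, 637 and 644 in V-K562 and at 267, 250 and 265 in B-K562 libraries. In the G-K562 table it was at 603, 646 and 658 in V-K562 and at 989, 922 and 971 in G-K562 libraries. It fell by 1.26 log2 units in B-K562 cells (standard error 0.07, adjusted p = 3.4e-09) and rose by 0.60 in G-K562 cells (standard error 0.07, adjusted p = 1.7e-05, limma-trend with Benjamini-Hochberg adjustment), and no libraries overlapped between lines.

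TAP2 (Entrez 6891, chromosome 6, 32821833 to 32838823, minus strand) encodes the partner subunit and lies next to PSMB8 and TAP1, yet it did not fall. Its values were 1831, 1840 and 1699 in V-K562 and 2357, 2540 and 2598 in B-K562 libraries. In the table with G-K562 they were 1859, 1869 and 1734 in V-K562 and 2213, 2182 and 2279 in G-K562 libraries. TAP2 rose in both lines, by 0.48 in B-K562 (standard error 0.05, adjusted p = 2.5e-06) and by 0.29 in G-K562 cells (standard error 0.06, adjusted p = 9.8e-04) on the log2 scale (limma-trend, Benjamini-Hochberg). The per-kilobase ratio of TAP1 to TAP2 was 0.641, 0.683 and 0.750 in V-K562, 0.224, 0.195 and 0.202 in B-K562 and 0.884, 0.835 and 0.842 in G-K562 libraries. TAP2 transcripts thus exceeded TAP1 transcripts per length in every library, and by the widest margin in B-K562 cells.

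NLRC5 (Entrez 84166, chromosome 16, 56989547 to 57083526, plus strand), the class I transactivator, was low in all lines. V-K562 libraries were at 32, 26 and 18 and B-K562 libraries at 11, 11 and 20, so that the lines overlapped. In the G-K562 table V-K562 libraries were at 33, 26 and 18 and G-K562 libraries at 6, 5 and 4, well apart. NLRC5 fell by 2.13 log2 units in G-K562 cells (standard error 0.32, adjusted p = 1.2e-04), the line in which HLA-B, HLA-C, HLA-E, B2M and TAP1 rose. It passed the filter on low values there through the V-K562 libraries alone, so its direction in that fit was fixed. Without the filter the adjusted p was 6.6e-04 (limma-trend with Benjamini-Hochberg adjustment). In B-K562 cells it was at -0.83 log2 units (standard error 0.31, adjusted p = 0.027, limma-trend with Benjamini-Hochberg adjustment). That call was lost without V-K562 replicate 1 or 2 or B-K562 replicate 1 or 2, where the adjusted p was 0.083 to 0.11, and it was 0.062 when no filter on low values was used.

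Of the 7 members tested, 6 fell and 1 rose in B-K562 cells, where 37.2% of all 14958 genes tested fell and 38.6% rose. With at least a 2-fold change required as well, 4 members fell and none rose, and the shares over all genes were 14.1% and 6.46%. The median log2 fold change of the 7 was -1.03, and that of all genes 0.01. In G-K562 cells 1 member fell and 6 rose, of 33.3% and 33.5% of 15271 genes. At least 2-fold changes were 1 fall (NLRC5) and 1 rise (HLA-B), with 10.3% and 8.81% of all genes. The direction of NLRC5 was fixed there, since it passed the filter through the V-K562 libraries alone. The median was 0.76 for the 7 and 0.0027 for all genes. Whether these shares differ from those of all genes was not tested. Libraries did not overlap for 6 of the 7 members in B-K562 and 7 of 7 in G-K562 cells, against 77.8% and 70.2% of all genes. In G-K562 cells NLRC5 had to be separate, since no G-K562 library held 10 or more. HLA-F and HLA-G, the members not tested, are left out of these counts. The plot of member changes shows the estimates side by side.

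**Figure D2:**
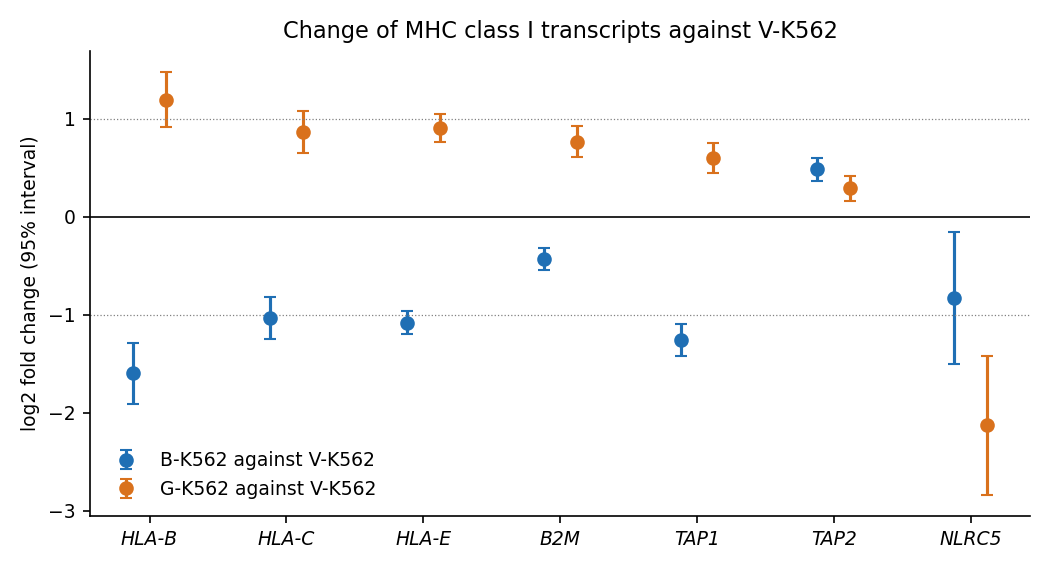
Log2 fold change (y axis) of the 7 tested members against V-K562 cells in B-K562 and in G-K562 cells, with 95% intervals from limma-trend as bars and dotted lines at 2-fold. HLA-B, HLA-C, HLA-E, B2M and TAP1 lie below 0 in B-K562 and above 0 in G-K562 cells, TAP2 lies above 0 in both and NLRC5 below 0 in both. The same V-K562 libraries serve both comparisons.

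The BASP1 lines were also compared directly, in a fit of all 9 libraries with the B-K562 values multiplied by 1.017 to meet the scale of the other table. G-K562 cells exceeded B-K562 cells by 2.80 log2 units for HLA-B (standard error 0.13, adjusted p = 7.5e-11), by 1.98 for HLA-E (standard error 0.06, adjusted p = 1.2e-12) and by 1.89 for HLA-C (standard error 0.10, adjusted p = 2.8e-10). For TAP1 the difference was 1.85 (standard error 0.07, adjusted p = 8.2e-12) and for B2M 1.19 (standard error 0.06, adjusted p = 3.0e-10, limma-trend with Benjamini-Hochberg adjustment). The remaining 2 tested members went the other way. TAP2 stood lower in the G-K562 line than in the B-K562 line, at -0.19 (standard error 0.05, adjusted p = 0.0045), and so did NLRC5, at -1.31 (standard error 0.33, adjusted p = 0.0024, limma-trend). In all, 5 of the 7 were higher and 2 lower in G-K562 cells, where 38.1% and 40.5% of 15521 genes were, and at least 2-fold differences were 5 higher and 1 lower (17.4% and 12.5% of all genes).

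Per kilobase of exon, the scale on which genes can be set beside each other, B2M stood first in V-K562 cells at 8322 ± 514 (SD, n = 3 libraries), followed by HLA-E at 2079 ± 125. TAP2 came next at 293 ± 12.1. HLA-C at 222 ± 19.5 and TAP1 at 202 ± 9.20 were neighbours that did not differ beyond their spread, and HLA-B followed at 102 ± 18.1. NLRC5 at 3.41 ± 1.0, HLA-G at 2.11 ± 0.968 and HLA-F at 1.52 ± 1.10 lay at the bottom, with overlapping spreads. In B-K562 cells the order was the same down to HLA-B, at 6177 ± 164 for B2M, 982 ± 38.4 for HLA-E, 409 ± 20.6 for TAP2, 108 ± 8.66 for HLA-C, 84.3 ± 3.0 for TAP1 and 32.7 ± 0.346 for HLA-B. In G-K562 cells HLA-C, at 403 ± 35.4, stood beside TAP2, at 358 ± 7.97, and the libraries of these genes overlapped. B2M was at 14135 ± 1145, HLA-E at 3884 ± 241, TAP1 at 305 ± 11 and HLA-B at 231 ± 15.3 in that line.

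Genes that act beside the members were read from lists of the pathway. For comparison with the counts of this list and the lists that follow, 37.2% of all genes tested fell and 38.6% rose in B-K562 cells. In G-K562 cells 33.3% fell and 33.5% rose. Whether any list differs from these shares was not tested. All 7 genes of peptide loading and trimming fell in B-K562 cells (median log2 fold change -0.54), and in G-K562 cells 4 rose, 1 fell and 2 did not pass the test, with a median of 0.70. TAPBPL, a tapasin-related peptide editor, was at 65, 65 and 67 in V-K562, at 23, 30 and 30 in B-K562 and at 189, 178 and 192 in G-K562 libraries. Its log2 fold changes were -1.23 (adjusted p = 3.0e-05) and 1.46 (adjusted p = 8.6e-07, limma-trend with Benjamini-Hochberg adjustment). TAPBP, or tapasin, which bridges the transporter and the heavy chain, fell by 0.47 and rose by 0.89. The trimming aminopeptidases ERAP1 and ERAP2 fell by 0.72 and 1.05 and rose by 1.05 and 0.70. The chaperones with wider duties moved less. CALR, or calreticulin, fell in both lines, by 0.54 and 0.38, and CANX and PDIA3 fell in B-K562 cells by 0.21 and 0.31 and had log2 fold changes of 0.05 (adjusted p = 0.48) and 0.11 (adjusted p = 0.10, limma-trend) in G-K562 cells.

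The immunoproteasome replaces the catalytic subunits of the standard proteasome and yields peptides suited to class I. PSMB8 and PSMB9, which lie between and beside the TAP genes, moved like TAP1. PSMB8 was at 244, 231 and 272 in V-K562, at 44, 34 and 34 in B-K562 and at 455, 471 and 477 in G-K562 libraries. It fell by 2.71 log2 units (standard error 0.14, adjusted p = 1.2e-09) and rose by 0.89 (standard error 0.09, adjusted p = 6.0e-06, limma-trend with Benjamini-Hochberg adjustment). PSMB9 was at 125, 111 and 114 in V-K562, at 51, 54 and 49 in B-K562 and at 431, 474 and 411 in G-K562 libraries, with log2 fold changes of -1.17 and 1.88. PSMB10, encoded on chromosome 16 apart from the MHC, rose in both lines, by 0.46 and 1.14. Among the subunits of the PA28 activators PSME1 fell by 0.67 in B-K562 cells and PSME2 and PSME3 rose by 0.29 and 1.42, and in G-K562 cells these 3 genes rose by 0.29, 0.67 and 0.38. The list of 6 thus had 3 falls and 3 rises in B-K562 cells (median -0.19) and 6 rises in G-K562 cells (median 0.78). The constitutive subunits that the immunoproteasome replaces, PSMB5, PSMB6 and PSMB7, all rose in B-K562 cells, by 0.53, 0.80 and 0.73, and in G-K562 cells PSMB5 fell by 0.51 while the log2 fold changes of PSMB6 and PSMB7 were -0.09 (adjusted p = 0.37) and -0.17 (adjusted p = 0.061, limma-trend).

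Regulators of class I promoters were mixed. Of 15 genes 14 were tested, and CIITA, the class II counterpart of NLRC5, was at 4 or below in every library. In B-K562 cells 6 fell, 6 rose and 2 did not pass (median -0.013), and in G-K562 cells 4 fell, 7 rose and 3 did not pass (median 0.18). IRF1, an interferon regulatory factor, was at 671, 695 and 720 in V-K562, at 488, 463 and 488 in B-K562 and at 1351, 1464 and 1548 in G-K562 libraries. It fell by 0.53 and rose by 1.04 on the log2 scale (adjusted p = 4.7e-06 and 2.1e-07, limma-trend with Benjamini-Hochberg adjustment). STAT2, which carries the type I interferon signal, fell by 0.56 and rose by 0.40, and its partner IRF9 fell by 0.60 in B-K562 cells and was at -0.07 log2 units in the G-K562 line (adjusted p = 0.62, limma-trend). NFKB1 rose in both lines, by 1.22 and 0.63. RFX5, a subunit of the RFX complex that NLRC5 joins at the promoter, had a log2 fold change of 0.11 in B-K562 cells (adjusted p = 0.058, limma-trend) and rose by 0.29 in G-K562 cells. Among the NF-Y subunits NFYB fell in both lines, by 0.70 and 0.30, and NFYA and NFYC rose in B-K562 cells by 0.72 and 0.29 and fell in G-K562 cells by 0.19 and 0.23.

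Polycomb repressive complex 2, which places H3K27me3, is known to silence class I genes. Of its core genes EED and EZH2 rose by 0.90 and 0.15 log2 units in B-K562 cells, and SUZ12 had a log2 fold change of 0.10 (adjusted p = 0.14, limma-trend with Benjamini-Hochberg adjustment). In G-K562 cells EZH2 fell by 0.56 and EED and SUZ12 rose by 0.28 and 0.25. The median of these 3 genes was 0.15 and 0.25. EZH2 ranged from 6685 to 6989 over the V-K562 libraries and from 7394 to 7686 over those of B-K562, and in the other table from 6820 to 7096 over V-K562 and from 4575 to 4806 over G-K562 libraries.

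The class I-like and NK ligand genes lie outside the classical pathway, and the products of most of them are read by NK cells or by unconventional T cells. Of 12 genes 8 were tested, and in B-K562 cells 7 fell, with 1 that did not pass (median -1.14). In G-K562 cells 4 fell and 4 rose (median 0.29). ULBP2, a stress-induced ligand of the activating receptor NKG2D, was at 192, 196 and 234 in V-K562, at 12, 17 and 11 in B-K562 and at 634, 855 and 705 in G-K562 libraries. It fell by 3.88 (standard error 0.19, adjusted p = 6.3e-10) and rose by 1.78 (standard error 0.12, adjusted p = 1.9e-07, limma-trend with Benjamini-Hochberg adjustment). ULBP1, another NKG2D ligand, fell by 1.85 and rose by 1.10. MICA and MICB, NKG2D ligands encoded near HLA-B, fell in both lines, by 0.73 and 0.67 in B-K562 and by 0.52 and 0.55 in G-K562 cells. MR1, which presents vitamin metabolites to MAIT cells, fell by 0.27 and rose by 1.71. HFE, a regulator of iron uptake, had a log2 fold change of -0.29 in B-K562 cells (adjusted p = 0.20, limma-trend) and rose by 1.67 in G-K562 cells. FCGRT, the heavy chain of the neonatal Fc receptor, which also pairs with B2M, fell by 1.56 in the B-K562 line and fell by 3.64 in the G-K562 line. CD1D, which presents lipids to NKT cells, was at 47 to 61 in V-K562 libraries, at 0 or 1 in B-K562 libraries and at 0 in all G-K562 libraries. It is counted among the falls in both lines, but it entered both tests through the V-K562 libraries alone. Its direction was therefore fixed, and no fold change is given. Any value below those of the other genes leaves the median as it is.

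MHC class II genes, which present peptides from outside the cell, were mostly silent. HLA-DQB1 was at 0 in every library, and only 4 of 10 were tested. HLA-DPA1, HLA-DPB1, HLA-DMA and CD74 all fell in B-K562 cells (median -2.30). HLA-DPA1, HLA-DPB1 and CD74 also fell in G-K562 cells (log2 fold changes -1.01, -1.63 and -2.88, median of the 4 -1.32), while HLA-DMA had a log2 fold change of 0.05 (adjusted p = 0.85, limma-trend with Benjamini-Hochberg adjustment). HLA-DPB1 was at 80, 72 and 80 in V-K562, at 13, 16 and 15 in B-K562 and at 23, 26 and 25 in G-K562 libraries. The plot of pathway changes gives the genes of these lists except the regulators.

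**Figure D3:**
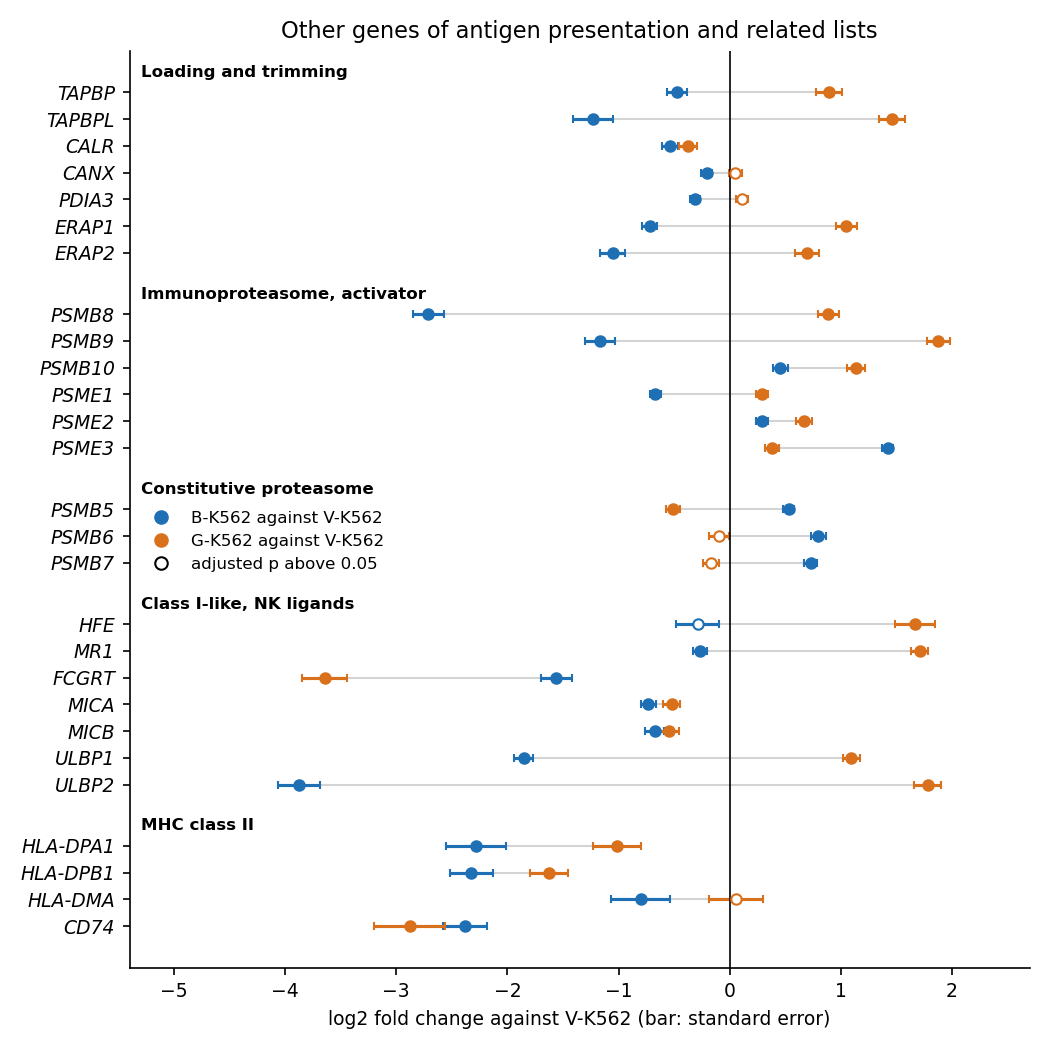
Log2 fold change (x axis) against V-K562 cells of tested genes of 5 pathway lists (y axis) in B-K562 and G-K562 cells, with the limma-trend standard error as bars and open points for an adjusted p above 0.05. CD1D, at 0 in all G-K562 libraries, is left out. Loading and trimming genes lie left of 0 in B-K562 cells, PSMB8, PSMB9, ULBP1 and ULBP2 lie on opposite sides in the BASP1 lines, and HLA-DPA1, HLA-DPB1 and CD74 lie left of 0 in both.

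ATAC-seq marks open chromatin by transposase insertions. The value used was the highest summit pileup, the number of tags over the summit of a called peak, in each library, given as deposited. Libraries had 47111 to 55570 peaks. The authors had sampled the libraries to equal tags before peaks were called, and library depth was not in the deposited values. Pileups were put on 1 scale by a trimmed mean for the test, limma-trend on log2(pileup + 1), and a library without a peak was set to 17 tags, the 5th percentile of all summits. A missing peak does not show that tags were few. Without the scaling the median over all regions moved by 0.12 to 0.28 on the log2 scale. Whether scaled or unscaled values are nearer to the true changes was not tested, so calls that depend on the scaling are not settled.

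The start sites of HLA-B, HLA-C, HLA-E, B2M, TAP1 and TAP2 lay in called regions. HLA-G had no region within 5 kb, HLA-F had 1 region far inside the gene, and NLRC5 had none at its start site. In B-K562 cells, where HLA-C, HLA-E, B2M and TAP1 transcripts fell, none of the start sites fell. Of the 5 tested there, 1 rose (TAP2) and 4 did not pass the test, where 16.6% of all 52204 regions fell and 8.57% rose. In G-K562 cells 4 of the 6 rose and none fell, 1 of the 4 being HLA-B, which had 1 peak in V-K562 libraries, where 15.9% of 54213 regions rose and 26.0% fell. Over the 5 start sites with peaks in every library the median log2 fold changes were 0.05 and 0.47, against -0.06 and -0.10 over all regions. At least 2-fold changes among all regions of the set were 2 falls and no rise in B-K562 cells (6.16% and 1.53% of all regions) and 2 falls and 1 rise in G-K562 cells (13.1% and 2.86%). Both falls in B-K562 cells, and 1 fall and the rise in G-K562 cells, were at regions with at most 1 peak in a line, which passed the filter through the other line and had to differ.

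The HLA-B start site (chr6:31357102-31357483) had a peak of 28 tags in V-K562 replicate 2, no peak in the other V-K562 libraries or in any B-K562 library, and peaks of 57, 51 and 67 tags in the G-K562 libraries. The HLA-B promoter window shown above lies within this region. The region entered the fits of G-K562 libraries through their peaks alone, with the missing peaks set to 17 tags, so its direction there was fixed and no fold change or p is given. With only 1 peak in 6 libraries, it was not tested between B-K562 and V-K562 cells.

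At the HLA-C start site (chr6:31271961-31272407) the summits were 45, 63 and 86 tags in V-K562, 72, 64 and 68 in B-K562 and 139, 154 and 147 in G-K562 libraries. G-K562 libraries were above all others, and B-K562 libraries lay within the V-K562 range. The log2 fold change was 0.87 in G-K562 cells (standard error 0.22, adjusted p = 0.015) and -0.03 in B-K562 cells (95% interval -0.54 to 0.47, adjusted p = 0.93, limma-trend with Benjamini-Hochberg adjustment). The G-K562 call was lost without V-K562 replicate 2 or G-K562 replicate 2 or 3 when the regions tested were kept, with adjusted p of 0.053 to 0.059.

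Summits at the HLA-E start site (chr6:30489158-30489924) were 213, 224 and 194 tags in V-K562, 267, 247 and 213 in B-K562 and 304, 283 and 311 in G-K562 libraries. After scaling the log2 fold changes were 0.05 (95% interval -0.18 to 0.27, adjusted p = 0.75) and 0.16 (95% interval -0.02 to 0.34, adjusted p = 0.14). Without scaling the value in G-K562 cells was 0.51 (adjusted p = 0.0023, limma-trend with Benjamini-Hochberg adjustment). Downstream of HLA-E another region (chr6:30496426-30497051) went the opposite way. It was at 248, 258 and 275 tags in V-K562, 214, 176 and 179 in B-K562 and 148, 126 and 146 in G-K562 libraries, without overlap. It fell by 0.61 (standard error 0.09, adjusted p = 0.0038) and by 1.24 (standard error 0.08, adjusted p = 1.8e-04, limma-trend with Benjamini-Hochberg adjustment), so that it was lowest in the line with the most HLA-E transcripts.

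The B2M start site (chr15:44711148-44712154), a region that PATL2 also overlaps, had summits of 214, 180 and 157 tags in V-K562, 232, 221 and 205 in B-K562 and 307, 239 and 293 in G-K562 libraries. G-K562 libraries were the highest, and the other lines overlapped. The log2 fold changes were 0.11 in B-K562 (95% interval -0.17 to 0.39, adjusted p = 0.52) and 0.26 in G-K562 cells (95% interval -0.06 to 0.58, adjusted p = 0.17), and without scaling the latter was 0.61 (adjusted p = 0.0091, limma-trend with Benjamini-Hochberg adjustment). It also passed on the mean pileup, at 0.49 (adjusted p = 0.036, limma-trend).

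TAP1 and PSMB9 start from a shared region (chr6:32853524-32854381). Its summits were 132, 123 and 105 tags in V-K562, 123, 140 and 141 in B-K562 and 198, 218 and 221 in G-K562 libraries. In B-K562 cells, where TAP1 and PSMB9 transcripts fell, the log2 fold change was 0.02 (95% interval -0.26 to 0.30, adjusted p = 0.93). In G-K562 cells the region rose by 0.47 (standard error 0.12, adjusted p = 0.014, limma-trend with Benjamini-Hochberg adjustment). At the start of PSMB8 (chr6:32844448-32844966) the summits were 130, 120 and 126 tags in V-K562, 148, 131 and 144 in B-K562 and 274, 251 and 251 in G-K562 libraries. That region rose in G-K562 cells by 0.69 (standard error 0.08, adjusted p = 8.2e-04) and had a log2 fold change of 0.02 in B-K562 cells (95% interval -0.20 to 0.23, adjusted p = 0.92, limma-trend with Benjamini-Hochberg adjustment). A region inside PSMB9 (chr6:32857605-32857876) had peaks of 37, 52 and 44 tags in V-K562 libraries and none in the other lines.

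At TAP2 (chr6:32838078-32839033) the summits were 167, 165 and 195 tags in V-K562, 270, 238 and 231 in B-K562 and 322, 286 and 334 in G-K562 libraries. Before scaling, these summits were highest in G-K562 libraries, while TAP2 transcripts were highest in B-K562 cells. After scaling, G-K562 differed from B-K562 cells at this region by 0.13 (standard error 0.09, adjusted p = 0.33, limma-trend with Benjamini-Hochberg adjustment). The order of the BASP1 lines at this region is therefore not settled. The region rose by 0.33 in B-K562 (standard error 0.10, adjusted p = 0.039) and by 0.49 in G-K562 cells (standard error 0.09, adjusted p = 0.0047, limma-trend with Benjamini-Hochberg adjustment). The B-K562 call was lost without any single library but V-K562 replicate 3, with adjusted p up to 0.11. On the mean pileup over the peak neither call held, at 0.07 (adjusted p = 0.74) and 0.19 (adjusted p = 0.23, limma-trend). The plots of start-site pileups and of the TAP locus show these values.

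**Figure D4:**
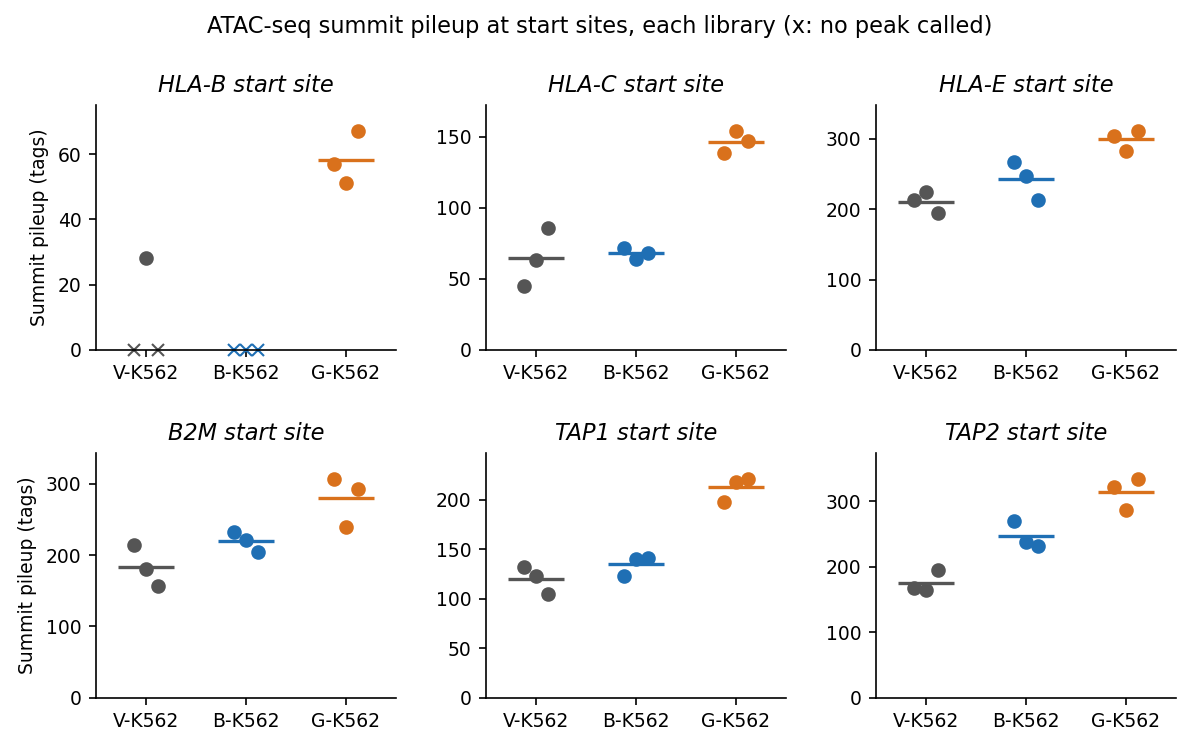
Summit pileup in tags (y axis, linear, from 0, unscaled) at the start sites of 6 members in the 3 libraries of each line (points), with the mean as a bar where all 3 libraries had a peak and a cross where no peak was called. Before scaling, G-K562 libraries are the highest at every start site, at 51 to 67 tags for HLA-B and 286 to 334 for TAP2. Their mean pileup over all peaks is also the highest, and after scaling the HLA-E and B2M start sites did not pass the test against V-K562 cells. B-K562 libraries overlap V-K562 libraries at HLA-C, HLA-E, B2M and TAP1.

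**Figure D5:**
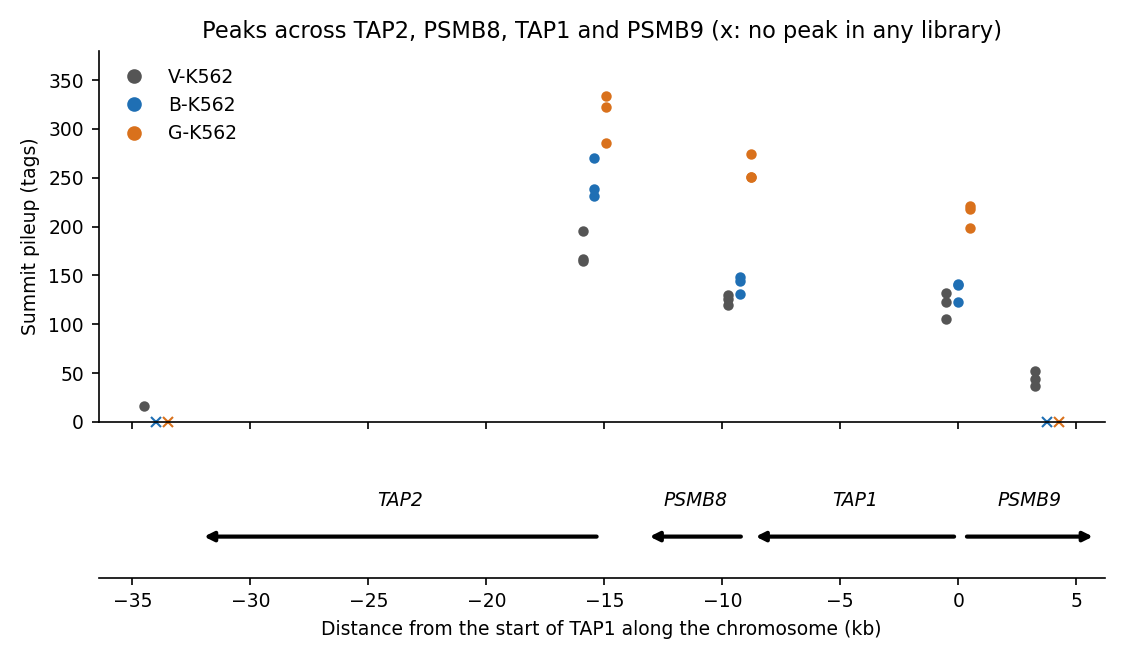
Summit pileup in tags (y axis, unscaled) of each library at the regions around TAP2, PSMB8, TAP1 and PSMB9, by distance in kb from the start of TAP1 along the chromosome (x axis), with the 3 lines set slightly apart and arrows for the genes. G-K562 libraries are highest at the 3 start regions, B-K562 libraries stand apart from V-K562 libraries at the TAP2 start, and the region within PSMB9 has peaks of 37 to 52 tags in V-K562 libraries alone.

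NLRC5 had 6 regions, all weak. The one nearest to its start (chr16:56991696-56992206, 2149 bases into the gene, in an intron) was at 57, 58 and 77 tags in V-K562, 43, 38 and 46 in B-K562 and 68, 54 and 57 in G-K562 libraries. It fell in B-K562 cells by 0.73 (standard error 0.19, adjusted p = 0.025), a call lost without V-K562 replicate 3 or any B-K562 library (adjusted p 0.054 to 0.083 with the regions tested kept), and in G-K562 cells was at -0.44 log2 units (95% interval -0.84 to -0.04, adjusted p = 0.075, limma-trend with Benjamini-Hochberg adjustment). Directly compared, G-K562 differed from B-K562 cells at this intron region by 0.27 (95% interval -0.10 to 0.64, adjusted p = 0.28, limma-trend). The order of the BASP1 lines here is therefore not settled, while the transcript was lowest in G-K562 cells. Another region in an exon (chr16:57062388-57062735) had peaks of 51, 55 and 41 tags in V-K562, none in B-K562 and 27, 42 and 39 in G-K562 libraries. The region within HLA-F (chr6:29738066-29738458), which HLA-F-AS1 also covers, had a peak of 17 tags in 1 V-K562 library, 17, 20 and 16 in B-K562 and 28, 27 and 30 in G-K562 libraries. G-K562 libraries were above all others, and since every V-K562 value in the fit was at the 17 tags given to missing peaks, no test is given.

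Over all 19 regions, 14 were tested in B-K562 cells, of which 4 fell, 1 rose and 9 did not pass, where 16.6% of all regions fell and 8.57% rose. In G-K562 cells 15 were tested, of which 3 fell, 6 rose and 6 did not pass, where 26.0% of all regions fell and 15.9% rose. Among the 11 regions with peaks in at least 2 libraries of each line compared, 2 fell and 1 rose in B-K562 and 2 fell and 4 rose in G-K562 cells, and between the BASP1 lines 4 were higher and 1 lower in G-K562 cells. Directly between the BASP1 lines, G-K562 exceeded B-K562 cells at 6 of 15 regions and was below at 1, where 12.3% of 60181 regions were higher and 15.6% lower. At least 2-fold differences were 1 higher, the HLA-B start site with no peak in B-K562 libraries, and none lower (4.28% and 8.60% of all regions). The start sites among the 6 higher regions were those of HLA-B, HLA-C (0.88, standard error 0.19, adjusted p = 0.0076) and TAP1 (0.44, standard error 0.11, adjusted p = 0.015, limma-trend with Benjamini-Hochberg adjustment). The TAP1 call was lost without B-K562 replicate 1 or G-K562 replicate 2, with adjusted p of 0.050 to 0.059. The 3 other start sites had differences of 0.09 for HLA-E (95% interval -0.10 to 0.29), 0.13 for B2M (95% interval -0.15 to 0.41) and 0.13 for TAP2 (95% interval -0.07 to 0.33). HLA-E transcripts differed by 1.98 between these lines. Without scaling the differences of the HLA-E and TAP2 start sites passed the test, at 0.31 (adjusted p = 0.033) and 0.35 (adjusted p = 0.021, limma-trend).

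Genes with the most similar profile were found by Pearson's correlation of log2(value + 1) over the 9 RNA-seq libraries, among 12390 genes outside the set with a mean of at least 50. The 9 points fall into 3 lines, so any gene with the same order and spacing of lines scores high, and the values are a description. Nearest to HLA-B were RNF187, TMED9 and DNAJC4, each at r = 0.996 or 0.997. TAP1 was followed most closely by SMIM14, ITPRIPL2 and FCGR2A, all at 0.998, and B2M by FAM13B, ALG2 and RCN1, all at 0.995. For FCGR2A, an Fc receptor gene, mean values were 6145 in V-K562, 1525 in B-K562 and 10553 in G-K562 cells. The genes nearest to NLRC5, which went down in both lines, were ZNF85, PXYLP1 and SRPK2, at 0.976, 0.974 and 0.967. ZNF85 had means of 104, 68.8 and 33.3 in the same order of lines.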

How the data were processed

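For either assay, 3 cultures per line were sequenced (V-K562, B-K562, G-K562), which gave 18 libraries. Per the methods of the study, reads were mapped to GRCh38 with STAR or BWA-MEM, duplicates were removed and unique reads with at most 2 mismatches were kept. RNA-seq reads were assigned to RefSeq genes with Subread, and tool versions are not given in the sources used here. The library kit marks strand, and the strand setting of the counting is not given there. The deposited RNA-seq values, called normalized counts in the report and recorded as scores because they are no longer raw counts, are the authors' counts over DESeq2 size factors, rounded. The V-K562 columns of the tables differ by factors of 1.015 to 1.020. Other columns hold the authors' exon length, which was used, and the authors' log2 fold changes and adjusted p-values, which were not. The ATAC-seq signal is the authors' MACS2 pileup in tags at each summit and its mean over the peak, called per library after the authors had sampled libraries to equal tags.

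Because the values are not raw counts, limma-trend (limma 3.58.1, R 4.3.3) was fitted to log2(value + 1), two-sided, with p-values adjusted after Benjamini and Hochberg. Genes were tested where 3 or more libraries held 10 or more (6 libraries per comparison with V-K562, 9 for G-K562 against B-K562). Peaks that overlapped between libraries were merged. Regions were tested where 3 or more of the libraries compared had a peak, scaled by a trimmed mean (30% of ratios and 5% of means trimmed), with missing and lower values set to 17 tags. The lowest summit was 10. The fits were tested on simulated data. Other steps used Python 3.11.15, numpy 2.4.6, pandas 2.3.3 and matplotlib 3.10.9. The genes named are the 9 members, pathway lists by symbol, BASP1, cell markers and, for HLA-B, B2M, TAP1 and NLRC5, the 3 most similar genes. A regulator and a marker gene are not reported here and were left out of their lists. The members and lists were chosen with earlier results of these data known. P-values measure the spread between the cultures of 1 pool per line. RNA-seq depth per library was not in the deposited values, so no counting intervals are given. No pair of libraries held the same values (among genes at 100 or above, at most 0.757% had identical values in a pair). Pseudocounts, filters, scalings, the variance trend, region merging, windows, a replicate block and libraries left out were varied.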

Additional observations from a re-analysis of the deposited data

Results flagged for a closer look

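The effects of the BASP1 lines against V-K562 cells differed from each other by a direct test for 6 members, at an adjusted p of at most 0.05 and at least 2-fold. G-K562 minus B-K562 on the log2 scale was 2.80 for HLA-B, 1.89 for HLA-C, 1.98 for HLA-E, 1.19 for B2M, 1.85 for TAP1 and -1.31 for NLRC5 transcripts. All 5 of the former were higher in 3 of 3 G-K562 libraries than in any B-K562 library, and NLRC5 was lower in 3 of 3. The adjusted p-values from limma-trend stand in the report. Of all 15521 genes, 17.4% were higher and 12.5% lower in the G-K562 than in the B-K562 line at the same thresholds. By adjusted p alone the shares were 38.1% and 40.5%. The share of all genes whose libraries did not overlap is not given for this comparison, so the separation of libraries is a description only. Against V-K562 cells that share was 77.8% in B-K562 and 70.2% in G-K562 cells, so separation was common.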

How the results depend on the processing

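Counts of members changed at least 2-fold kept within 1.5 times under most alternatives, and no RNA-seq result changed direction. Of 457 RNA-seq values for single members under alternatives, 448 kept direction and call and 9 lost the call, all of them NLRC5 in B-K562 cells. In B-K562 cells 4 members were called, and 7 with no fold criterion. In G-K562 cells 2 were called, 7 with no fold criterion, 1 where every library had to hold 10 or more, and 1 to 2 with a library left out, where 1 follows because NLRC5 no longer passed the filter and was not tested without a V-K562 library. With the genes of the full comparison kept, an alternative chosen after seeing the data, 2 were called without any library. The ATAC-seq counts were small and less stable. Called regions in B-K562 cells were 2, both without peaks in that line, but 0 where every library had to have a peak, 1 within 2 kb, 5 with no fold criterion and 0 to 2 with a library left out. In G-K562 cells 3 were called, 1 where every library had to have a peak, 1 within 2 kb and 9 with no fold criterion. Between G-K562 and B-K562 cells 1 was called (the HLA-B start site, with no B-K562 peak), 3 with no scaling, 2 with missing peaks at the lowest summit of 10, 0 with a peak in every library and 7 with no fold criterion. Where fewer genes or regions were tested the count fell by construction, and the cause of the other shifts was not tested. Of 894 ATAC-seq values for single regions 23 changed sign, all in regions not called and near 0, 50 lost a call and 17 gained one. In B-K562 cells the HLA-C start site was -0.03 on the log2 scale, 0.12 with no scaling and -0.26 to 0.193 with a library left out. The HLA-E start site was 0.05, -0.0471 on the mean pileup and -0.0112 to 0.144 with a library left out, and the region in HLA-F was 0.02 and -0.0261 to 0.0600. The PSMB8 start was 0.02, -0.0227 with summits of at least 25 tags and -0.0305 to 0.0760 with a library left out, and the TAP1 start was 0.02, -0.0214 and -0.0772 to 0.107 likewise. The region downstream of NLRC5 differed between G-K562 and B-K562 cells by -0.15, by 0.0643 with no scaling and by -0.272 to 0.0985 with a library left out. Replicate numbers did not pair the libraries, since deviations from the line means of same-numbered libraries correlated at -0.10 to 0.15, and a replicate block left the called counts at 4, 2 and 6 for RNA-seq and at 2, 3 and 1 for ATAC-seq. With NLRC5 at 4 to 33, counting error limits its fold changes, and more so those of HLA-F and HLA-G, which with no filter made the calls 5, 2 and 8 for 9 members tested.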
